A study of Rattus norvegicus with 2 samples.

Results

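The genes described here are 10 growth factor and receptor genes of fibroblast and mural cell signalling, taken by symbol from the 16846 gene symbols of the deposited table. They are the PDGF ligand genes Pdgfa, Pdgfb and Pdgfc, the PDGF receptor genes Pdgfra and Pdgfrb, the FGF ligand genes Fgf2, Fgf7 and Fgf10, and the FGF receptor genes Fgfr1 and Fgfr2. All 10 had a row in the table. Of these, 8 reached a mean of 1 read per 1000000 reads on genes (RPM), and Fgf7 and Fgf10 were listed at 0.

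Strand-specific poly(A) RNA-seq was made from rat ventricular cells, taken at birth, pre-plated to remove attaching cells and cultured as cardiomyocytes. The control library came from cultures that one label calls transfected with empty adeno-associated virus (AAV) and the protocol calls mock-transduced. The anti-miR library came from cultures given AAV2/9 with short hairpin RNAs against Let-7 and miR-99/100. Both libraries are listed at day 7. There was 1 library per group, so no difference has a replicate check and all ratios describe these 2 libraries. Rat strain, animals per culture and the promoter that drives the hairpins are not given in the sources used here.

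PDGFs are dimeric growth factors that bind the receptor tyrosine kinases PDGFR-alpha and PDGFR-beta. In the heart PDGFR-alpha marks fibroblasts and their progenitors, and PDGFR-beta marks pericytes, smooth muscle cells and many fibroblasts. FGFs bind FGF receptors together with heparan sulfate and signal through the adaptor FRS2 to the ERK kinases, whose output is limited by Sprouty proteins. MicroRNAs lower the level or translation of mRNAs that pair with their seed, bases 2 to 8 from the 5′ end.

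The inhibited miRNAs are shown because they define the treatment. Mature sequences are from RefSeq (build GRCr8), 5′ to 3′, with the seed in capitals.
rno-let-7a-5p: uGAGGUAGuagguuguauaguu
rno-let-7c-5p: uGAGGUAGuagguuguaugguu
rno-miR-100-5p: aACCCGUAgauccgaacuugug
rno-miR-99b-5p: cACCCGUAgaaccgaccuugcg
The let-7 sequences named in the treatment protocol, let-7a and let-7c, differ at 1 base outside the seed (A19G, counted from the 5′ end of let-7a). The seed of let-7a was shared by 9 mature miRNAs matched in the table, let-7a to let-7g, let-7i and miR-98. The seed of miR-100 was shared with miR-99b, which differs from it at 4 bases (A1C, U11A, A16C and U21C, from miR-100). Poly(A) libraries do not measure mature miRNAs, so the knockdown itself was not read here.

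Reads on genes numbered 16031780 for the control and 14815846 for the anti-miR library. Many cardiomyocyte markers were low or listed at 0 although the cultures are labelled as cardiomyocytes. Of 16 such markers in the table, 8 reached 1 RPM. The median level over all 16 was 0.638 RPM per kb of transcript in the control, against 1.06 in the anti-miR library. The highest were Tnnt2 at 136 and 149 RPM per kb and Actc1 at 52.0 and 59.97, above 95.5% and 87.0% of genes in the anti-miR library. The 16 fibroblast markers had medians of 255 and 280 RPM per kb. The 12 mural cell markers had medians of 12.4 and 11.2 RPM per kb, and they were uneven: the pericyte marker genes Rgs5 (0 and 1 reads) and Higd1b (0 in both) were listed at or near 0, while Cspg4 had 2494 and 1828 reads and Mcam 4330 and 3530. The ribosomal protein gene Rpl38 was also listed at 0 in both libraries and Gapdh had 45 and 34 reads, so a listed 0 is not read as absence of a transcript. Leukocyte markers had medians of 260.5 and 228 RPM per kb. In such mixed cultures fewer cells of a type and less RNA per cell cannot be told apart.

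Summed over the 10 genes, receptors stood at 414 and 412 RPM per kb of transcript and ligands at 92.4 and 80.9, in the control and then the anti-miR library. Pdgfra, Pdgfrb and Fgfr1 were close between the libraries. Pdgfrb led all 10 genes in both libraries, while Fgf2 was the only one at least 2-fold apart between them. Levels of different genes are compared as RPM per kb, using the transcript length of the deposited table. Intervals on levels are exact 95% Poisson intervals and those on ratios are exact Clopper-Pearson 95% intervals. They allow for counting error alone and not for variation between cultures, since there was 1 library per group. PCR copies cannot be told from independent molecules here, so the intervals may be too narrow.

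**Figure D1:**
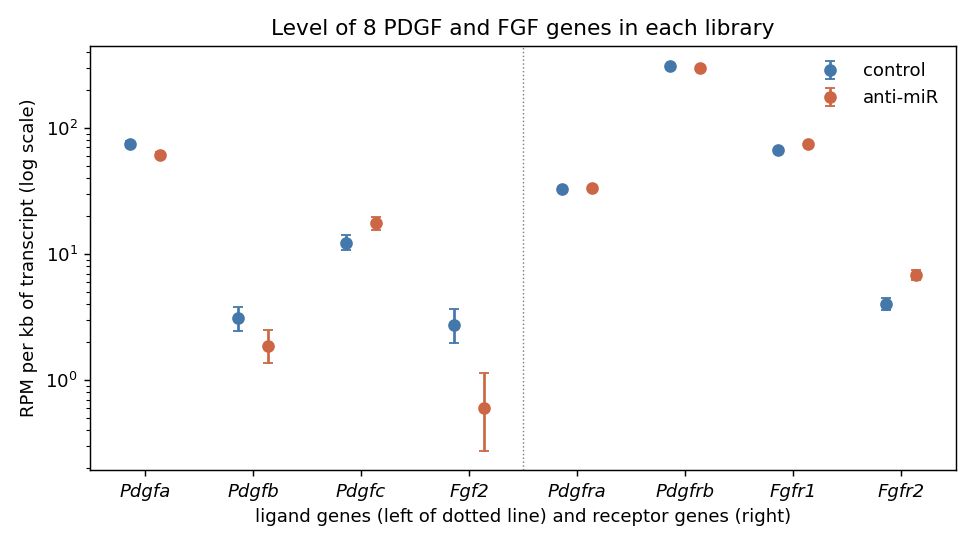
Level of each of the 8 genes above 1 RPM in RPM per kb of transcript (log axis), for the control and the anti-miR library (1 point per library), with exact 95% counting intervals. Pdgfrb stands highest at 310.4 and 298 RPM per kb, and Fgf2 lowest at 2.71 and 0.601.

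Pdgfrb (chromosome 18, 57014475 to 57053581, build rn4) encodes PDGFR-beta, the receptor for PDGF-B and PDGF-D. Reads numbered 26599 in the control and 23572 with anti-miR, which is 1659 and 1591 RPM. Per kb of transcript its level was 310.4 (interval 307 to 314) and 298 (294 to 301), above 98.2% and 98.1% of the 10365 genes of at least 1 RPM. The ratio of anti-miR over control was 0.959 (counting interval 0.942 to 0.976), so the 2 libraries differed by little at this depth.

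Pdgfra (chromosome 14, 35369422 to 35418126) encodes PDGFR-alpha, which binds PDGF-A, PDGF-B and PDGF-C. It had 3390 and 3217 reads, or 211 and 217 RPM, and a level of 32.6 and 33.5 RPM per kb. Its ratio was 1.03 (0.978 to 1.08), and this interval includes 1. Per kb, Pdgfrb exceeded Pdgfra by 9.53-fold (9.19 to 9.88) in the control library and by 8.90-fold (8.57 to 9.23) in the anti-miR library.

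Fgfr1 (chromosome 16, 70869974 to 70910045), the main FGF receptor of mesenchymal cells, was read 2626 times in the control and 2694 times with anti-miR. That is 164 and 182 RPM, and 66.8 and 74.2 RPM per kb. Its ratio was 1.11 (1.05 to 1.17), a small excess in the anti-miR library.

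Fgfr2 (chromosome 1, 189482975 to 189589279) encodes a receptor whose isoforms serve epithelial or mesenchymal cells, and gene counts do not separate them. The control held 297 of its reads and the anti-miR library 468, or 18.5 and 31.6 RPM. The ratio of 1.71 (1.47 to 1.98) was the highest of the 10 genes. On the log2 scale of RPM with 0.1 added it was 0.77. The central 95% of the 500 genes nearest in level ran from −0.69 to 0.95, so the excess lay inside that range. Per kb, Fgfr1 exceeded Fgfr2 by 16.6-fold (14.7 to 18.8) in the control, against 10.8-fold (9.80 to 12.0) in the anti-miR library.

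Among the ligands Pdgfa was the most abundant. Pdgfa (chromosome 12, 16151045 to 16172401) encodes the PDGF-A chain, which acts through PDGFR-alpha. The control held 1396 of its reads and the anti-miR library 1057, or 87.1 and 71.3 RPM. The ratio was 0.819 (0.756 to 0.888), and the log2 ratio of −0.29 lay inside its like-level range of −0.49 to 0.46.

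Pdgfc (chromosome 2, 172635732 to 172811004) encodes a ligand that is secreted inactive and cleaved to bind PDGFR-alpha. It had 219 and 288 reads, or 13.7 and 19.4 RPM, a ratio of 1.42 (1.19 to 1.70). Its direction was thus opposite to that of Pdgfa. Its log2 ratio of 0.51 lay inside the like-level range of −0.82 to 0.93. Per kb, Pdgfa exceeded Pdgfc by 6.03-fold (5.22 to 6.98) in the control, against 3.47-fold (3.04 to 3.97) in the anti-miR library.

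Pdgfb (chromosome 7, 118244385 to 118262021) encodes the PDGF-B chain, which endothelial cells release to recruit pericytes. The control held 84 of its reads and the anti-miR library 47, or 5.24 and 3.17 RPM, a ratio of 0.605 (0.414 to 0.875). The log2 ratio was −0.71, inside a like-level range of −1.93 to 2.05. At this level 28.2% of the 500 nearest genes were 2-fold or more apart. Endothelial markers summed to 65.3 RPM in the control, against 99.2 in the anti-miR library over 10 genes in the table. Of these, 8 reached 1 RPM, with 5 higher and 3 lower in the anti-miR library, beside 53.3% and 46.7% of all genes. Flt1 had 24.7 and 44.9 RPM, while Vwf had 47 and 3 reads and Tie1 had 158 and 120. Cdh5 had 0 and 1 reads and Emcn was listed at 0 in both. The part of endothelial cells in the Pdgfb value was not tested.

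Fgf2 (chromosome 2, 123893314 to 123947136) encodes basic FGF, a heparin-binding mitogen of fibroblasts and endothelial cells. The control held 44 of its reads and the anti-miR library 9, or 2.74 and 0.608 RPM. The ratio was 0.221 (0.0950 to 0.459), so the control library held 4.52 times the level of the anti-miR library. On the log2 scale the difference was −2.01. Genes of this level scattered far more than counting error alone: 49.4% of the 500 nearest genes were at least 2-fold apart, 50 of them had 0 reads in 1 library, and their central 95% ran from −4.49 to 5.13. Nudt6, annotated on the opposite strand 172 bases beyond the Fgf2 end, had 42 and 56 reads. Its ratio of 1.44 had an interval of 0.950 to 2.21, which includes 1. The counting was by strand per the file headers.

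Fgf7 (chromosome 3, 113468427 to 113517538) and Fgf10 (chromosome 2, 50866799 to 50940319) encode ligands that mesenchymal cells send to epithelia through FGFR2. Both were listed at 0 reads in each library. A limit of 3 reads, used here for genes with none, equals 0.187 RPM in the control, against 0.203 in the anti-miR library, for counting error only. As above, a listed 0 is not read as absence. Fam227b, whose span overlaps Fgf7 on the opposite strand, had 43 and 16 reads.

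**Figure D2:**
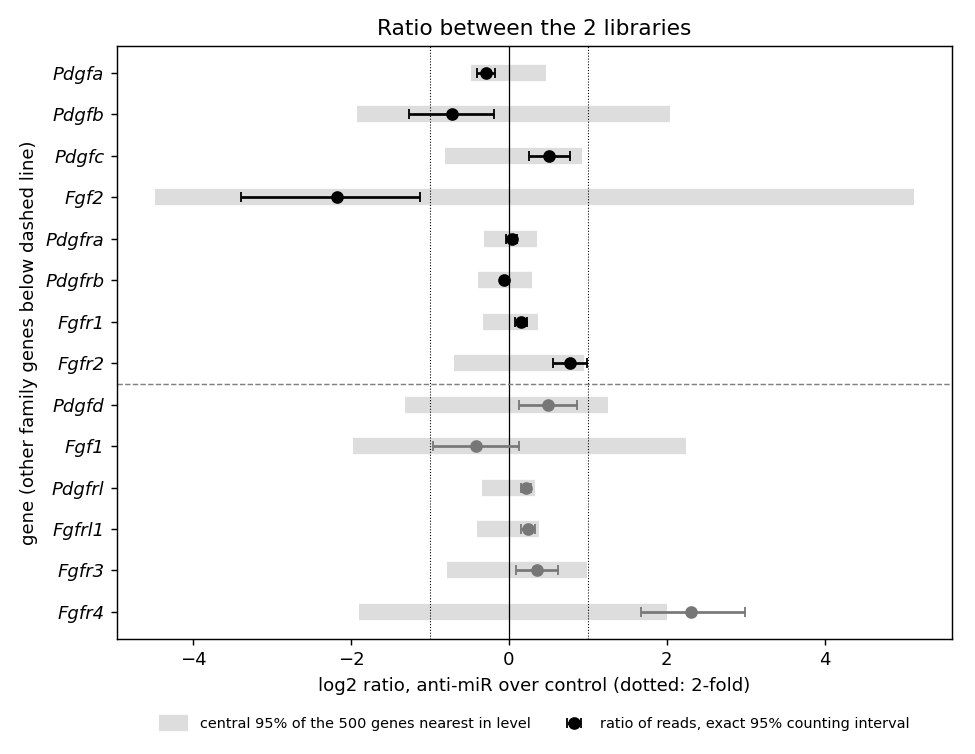
Log2 ratio of reads, anti-miR over control, with its exact 95% counting interval (points and lines; no value added), for the 8 genes above 1 RPM and, below the dashed line, 6 further family genes. Grey bars give the central 95% of log2 ratios (RPM + 0.1) of the 500 genes nearest in level, and Fgfr4 is the only gene shown whose point lies outside its bar.

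The order of levels per kb differed between the libraries at 1 place. In the control it ran Pdgfrb, Pdgfa, Fgfr1, Pdgfra, Pdgfc, Fgfr2, Pdgfb and Fgf2. In the anti-miR library Fgfr1 at 74.2 RPM per kb (71.4 to 77.0) stood above Pdgfa at 60.9 (57.3 to 64.7). In the control Pdgfa at 74.3 (70.5 to 78.3) stood above Fgfr1 at 66.8 (64.3 to 69.4). In RPM, without division by length, Fgfr1 stood above Pdgfa in both, so this exchange depends on the lengths in the table. At the low end of the control order stood Fgfr2 at 4.02 (3.58 to 4.51), Pdgfb at 3.09 (2.46 to 3.82) and Fgf2 at 2.71 (1.97 to 3.64). The ratio of Pdgfb over Fgf2 there was 1.14 (0.781 to 1.68), which includes 1, and that of Fgfr2 over Pdgfb was 1.30 (1.02 to 1.68). In the anti-miR library these 3 were apart, at 6.86 (6.25 to 7.51), 1.87 (1.37 to 2.49) and 0.601 (0.275 to 1.14) RPM per kb.

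As a group the 10 genes gave no common direction. Of the 8 above 1 RPM, 4 were higher and 4 lower in the anti-miR library, beside 53.3% and 46.7% of all genes. Their median log2 ratio was −0.01, beside 0.03 over all 10365 genes as scaled here. With upper quartile scaling it was 0.03, beside 0.07 over all genes. Fgf2 was the 1 of 8 at least 2-fold apart in either direction, beside 8.41% of all genes. At least 2-fold higher were 0 of 8, beside 4.85% of all genes, and 1 of 8 was at least 2-fold lower, beside 3.56%. At 1.5-fold, 3 of 8 were apart, beside 19.4% of all genes. Fgfr2 was higher, beside 10.8% of all genes, and Pdgfb and Fgf2 were lower, beside 8.56%. The other 5 lay within 1.5-fold. All 8 lay inside their like-level ranges. Counting intervals lay above 1 for Pdgfc, Fgfr1 and Fgfr2, below 1 for Pdgfa, Pdgfb, Pdgfrb and Fgf2, and across 1 for Pdgfra. The share of all genes whose interval excludes 1 was not computed.

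The recovered reads were also put to an exact binomial test with Benjamini-Hochberg adjustment over all genes with reads. It called 7 of the 8, beside 58.1% of all genes of at least 1 RPM. It compares 2 libraries, not the conditions.

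**Figure D3:**
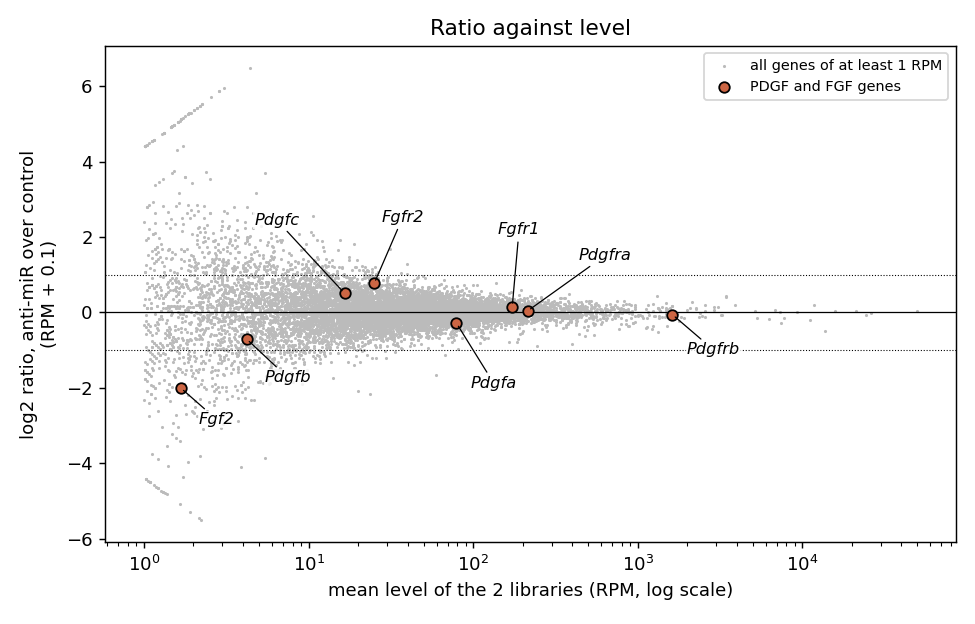
Log2 ratio of RPM + 0.1, anti-miR over control, against the mean level of the 2 libraries in RPM (log axis), for 10365 genes (grey) and the 8 PDGF and FGF genes above 1 RPM (orange). Fgf2, at −2.01, lies where genes scatter widely, and Pdgfrb, at −0.06, where they scatter little.

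The ligands and the receptors of the PDGF and FGF families were then set side by side with the family genes outside the 10. Pdgfd (chromosome 8, 3125521 to 3341300), a ligand of PDGFR-beta, had 110 and 143 reads, 6.86 and 9.65 RPM, a ratio of 1.41 (1.09 to 1.82). Its direction was that of Pdgfc, the other ligand that is secreted inactive and then cleaved. Pdgfa made up 74.4% of the PDGF ligand level per kb in the control, against 64.4% in the anti-miR library, while Pdgfc made up 12.4% and 18.6%, Pdgfd 10.1% and 15.0%, and Pdgfb 3.09% and 1.98%. The summed ligand level was 99.8 and 94.5 RPM per kb. Pdgfrl, which encodes a receptor-like protein without a kinase, had 232 and 269 RPM, a ratio of 1.16 (1.11 to 1.21).

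Of 17 further FGF genes in the table, 12 were listed at 0 in both libraries and Fgf1 was the only one to reach 1 RPM. Fgf1, acidic FGF, had 72 and 50 reads, a ratio of 0.751 (0.513 to 1.09) that includes 1. Fgf9, below the floor, had 19 and 6 reads. Fgf5, Fgf11 and Fgf13 held at most 11 reads in a library.

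Fgfr1 to Fgfr4 and Fgfrl1, 5 FGF receptor genes, all had a ratio above 1, beside 53.3% of all genes. Fgfr3, a commonly cited target of miR-99 and miR-100, had 216 and 256 reads, 13.5 and 17.3 RPM, a ratio of 1.28 (1.07 to 1.54), and its log2 ratio of 0.36 lay inside the like-level range of −0.78 to 0.99. Fgfr4 (chromosome 17, 15512144 to 15527348) had 25 and 114 reads, 1.56 and 7.69 RPM, a ratio of 4.93 (3.18 to 7.94). Its log2 ratio of 2.23 lay above the like-level range of −1.90 to 2.00, at a level where 26.6% of genes were 2-fold or more apart. Fgfrl1, a receptor without a kinase domain, had 124 and 146 RPM, a ratio of 1.18 (1.11 to 1.25). Per kb, Fgfr1 made up 88.4% and 83.4% of the level of Fgfr1 to Fgfr4, Fgfr2 5.32% and 7.71%, Fgfr3 5.62% and 6.13%, and Fgfr4 0.661% and 2.77%.

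**Figure D4:**
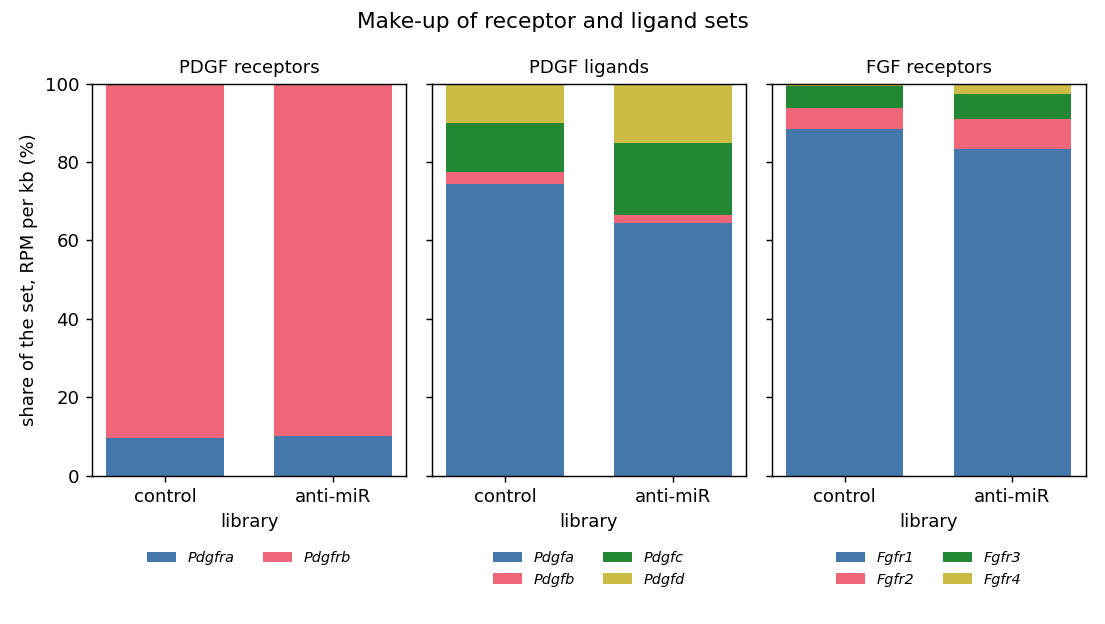
Share of each gene in the summed RPM per kb of the PDGF receptor genes, 4 PDGF ligand genes and 4 FGF receptor genes, in the control and the anti-miR library (1 bar each, no error shown). Pdgfrb holds 90.5% and 89.9% of the PDGF receptor level, Pdgfa 74.4% and 64.4% of the ligand level, and Fgfr1 88.4% and 83.4% of the FGF receptor level.

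Genes that process or bind PDGFs, and those of heparan sulfate, had median ratios near 1. The 5 genes of PDGF processing and binding had a median log2 ratio of 0.08, with 0 of them 1.5-fold apart, beside 19.4% of all genes. The highest was Plat, tissue plasminogen activator, which cleaves PDGF-C, with 296 and 353 RPM, a log2 ratio of 0.25. The lowest was Nrp1, a co-receptor, at −0.06, and the most abundant was Sparc, a matrix protein that binds PDGF, at 0.04. The 13 measured genes of heparan sulfate carriers and synthesis had a median of 0.07, also with 0 at 1.5-fold. Among them the glypican gene Gpc3 was highest at 0.29, the syndecan gene Sdc4 lowest at −0.22 and Sdc2 the most abundant at −0.03. The 6 other FGF receptors and partners above 1 RPM had a median of 0.40, beside 0.03 over all genes, with Fgfr4 the 1 gene at least 1.5-fold apart and Fgfbp3, a carrier protein of FGFs, lowest at −0.28.

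Of 26 measured adaptors and effectors below the receptors, 21 were higher in the anti-miR library, beside 53.3% of all genes, and 5 were lower. At 1.5-fold, 0 were apart, beside 19.4% of all genes, and the median log2 ratio was 0.14, beside 0.03 over all genes. Ptpn11, chosen after its value was seen, had 139 and 202 RPM, a ratio of 1.45 (1.37 to 1.53). Its log2 ratio of 0.53 lay above the like-level range of −0.33 to 0.36. Src, a tyrosine kinase recruited by PDGF receptors, was lowest at −0.35, with 47.8 and 37.5 RPM, and the adaptor gene Shc1 was the most abundant at 0.05.

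Of 14 feedback inhibitors and ERK-induced genes above 1 RPM, 10 were lower, beside 46.7% of all genes, and 4 higher. The median was −0.06, beside 0.03 over all genes. Upper quartile scaling gave 7 lower and 7 higher and a median of −0.02, beside 0.07 over all genes. At 1.5-fold, 2 were lower, beside 8.56% of all genes, and 0 higher. Spry1 (chromosome 2, 124213692 to 124218334), a Sprouty inhibitor of FGF signalling, was lowest with 624 and 311 reads, or 38.9 and 21.0 RPM. Its ratio was 0.539 (0.469 to 0.619), and its log2 ratio of −0.89 lay below the like-level range of −0.64 to 0.68. The other was Etv4, an ETS factor induced by FGF and chosen after its value was seen. Etv4 levels were 24.3 and 13.2 RPM, and the log2 ratio of −0.87 lay within the range of genes of like level, −0.89 to 0.87. Spry4 was highest at 0.34, and the ERK phosphatase gene Dusp6, the most abundant, had 195 and 166 RPM at −0.23.

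**Figure D5:**
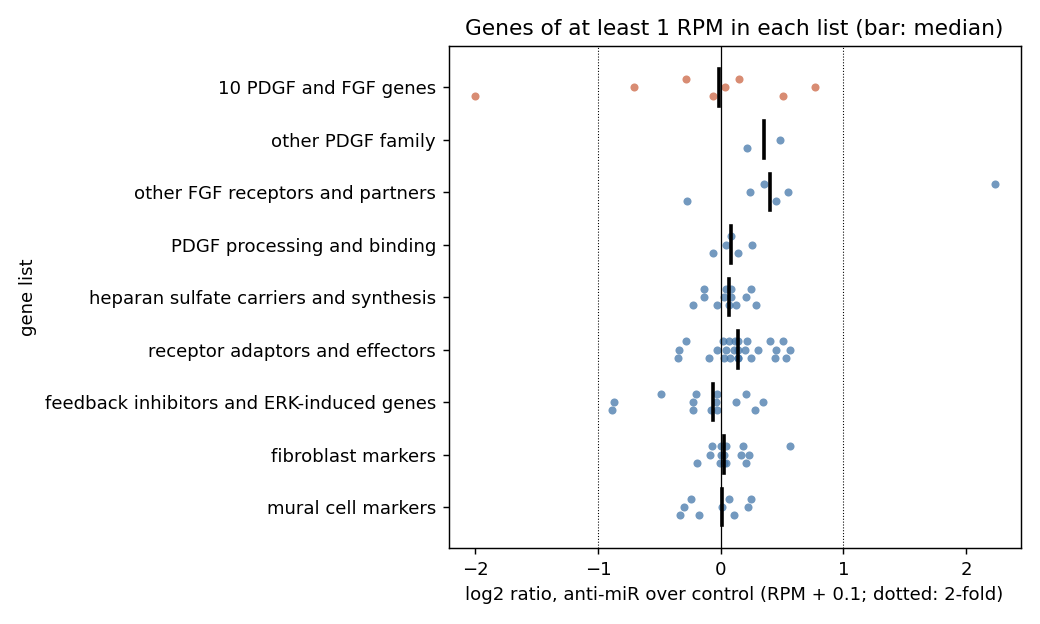
Log2 ratio of RPM + 0.1, anti-miR over control, for each gene of at least 1 RPM in 9 lists (points), with the median of each list (bar). The medians run from −0.06 for feedback inhibitors and ERK-induced genes to 0.40 for other FGF receptors and partners.

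Markers of the cells that carry these receptors had median ratios near 1. The 15 fibroblast markers above 1 RPM had a median log2 ratio of 0.03, with 0 at 1.5-fold, beside 19.4% of all genes. Dcn (decorin) was highest at 0.56, above its like-level range of −0.48 to 0.50. Ddr2 was lowest at −0.19 and Col1a1 the most abundant at 0.03. At the level of Col1a1, 0.6% of the 500 nearest genes were at least 1.5-fold apart. The 9 mural markers had a median of 0.01, again with 0 at 1.5-fold. The aminopeptidase gene Anpep was highest at 0.25, Cspg4, the NG2 proteoglycan of pericytes, lowest at −0.33 with 156 and 123 RPM, and Tagln the most abundant at 0.01. Leukocyte markers had a median of 0.05 over 13 genes. Lyz2 was highest and most abundant at 0.42, above its like-level range of −0.39 to 0.30. C1qa was lowest at −0.57, below its range of −0.35 to 0.31. Markers of 3 other types were less even. Epicardial markers had a median of −0.31 over 7 genes, with Krt19 lowest at −1.87 and Aldh1a2 highest and most abundant at 0.34. Of the 7, 1 was higher and 6 lower, beside 53.3% and 46.7% of all genes. At least 2-fold lower were 3, beside 3.56% of all genes. At the level of Krt19, 57.2% of the 500 nearest genes were 2-fold or more apart. The list summed to 158 and 152 RPM, of which Aldh1a2 held 67.5 and 85.7. Cardiomyocyte markers had a median of 0.17 over 8 genes, with Myh7 highest at 0.89, Myl2 lowest at −2.17 and Tnnt2 the most abundant at 0.13. Endothelial markers had a median of 0.56 over 8 genes, with Pecam1 highest with 0 and 50 reads and Plvap lowest with 33 and 0. Flt1, the most abundant, stood at 0.86, above its like-level range of −0.65 to 0.66. The part of these cell types in the values of the 10 genes was not tested.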

How the data were processed

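The deposited table holds a scaled read signal per gene for 2 libraries. Exon reads of rn4 RefSeq transcripts were counted by strand with analyzeRepeats of HOMER, keeping 1 transcript per gene, per the file headers. CASAVA 1.8.2 and STAR 2.2.0c are also listed, with no role stated, per the submitters' processing notes. Both columns of the deposited signal sum to 15423813 or 15423812, so the counts were scaled afterwards to a common total. The sources used here do not describe this step. Whole reads were recovered, since 100% of low values in each column were whole multiples of 1 read (0.962 and 1.04) within 0.005. The common total equals the mean of the 2 recovered read totals, 16031780 and 14815846. RPM is the signal per 1000000 of its column; ratios are log2((anti-miR + 0.1)/(control + 0.1)). A mean of 1 RPM was the floor, and a ratio of 2 the rule. With 1 library per group no spread can be estimated and no test of conditions was made. Functions were tested on simulated data (scipy 1.17.1, numpy 2.4.6).

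The 10 genes and all lists were chosen with earlier results of these data known. Besides the 10, the text names every further family ligand or receptor of at least 1 RPM and the highest, lowest and most abundant gene of each list. A gene that this rule would name is not reported here. All 10 accessions matched RefSeq under the same symbol. Reads outside the RefSeq transcript models were not counted, which affects levels per kb.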

Additional observations from a re-analysis of the deposited data

How the results depend on the processing

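Across 115 recomputed values, 106 were classed as unmoved. The limit was counting error for the ratio of a gene and 1.5 times the reported value for a count. List medians have no counting error of their own. Medians classed as unmoved include −0.01 to 0.03 for the 10 genes with upper quartile scaling. They also include −0.40 to 0 for the further FGF genes with no floor. No log2 ratio of the 8 genes changed sign under 3 other scalings and 2 other pseudocounts. Fgf2 ranged from −2.16 to −1.22 and Fgfr2 from 0.74 to 0.81. With upper quartile scaling Pdgfrb stood at −0.017 instead of −0.06. A floor of 10 RPM removed Fgf2 and Pdgfb, which left 0 genes at least 2-fold lower and a median of 0.094 instead of −0.01. A fold of 1.5 gave 1 higher and 2 lower. The exact two-library test on recovered reads, chosen after seeing the data, gave 3 higher and 4 lower. In either direction it called 58.1% of all genes of at least 1 RPM. Without division by length, 4 of the 8 control ranks and 3 of the 8 anti-miR ranks were as reported. No paired analysis was possible because there was 1 library per group. Depth limits Fgf2, with 9 reads in the anti-miR library. Fgf7 and Fgf10 were listed at 0, which is not read as absence of a transcript.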
